A study of Mus musculus with 119 samples.

Results

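The 10 circadian clock genes described here were Arntl, Clock, Per1, Per2, Per3, Ciart, Nr1d1, Nr1d2, Dbp and Tef. They were chosen by name, as parts of the transcriptional clock and of its direct output, by a rule that uses no measured value, but with earlier results of these data known. Each had 1 entry among the 55291 gene symbols of the deposited count tables. Polyadenylated RNA was sequenced in 119 libraries from 5 brain regions. These were the prefrontal cortex (PFC), dorsal striatum (DMS), ventral tegmental area (VTA), amygdala (Amy) and nucleus accumbens (NAc). DMS is the dorsal medial striatum in the study and the dorsolateral striatum in the labels. Female and male wild-type mice, C57BL/6J in the labels and C57BL/6NCrl in the methods, were injected i.p. each day with vehicle or with Δ9-tetrahydrocannabinol (THC, the main psychoactive compound of cannabis) at 10 mg/kg. The 21 injections began on postnatal day (PND) 28 and ended on PND 48. All mice, vehicle controls included, were handled, injected and then tested for behavior from PND 63, and the labels give an age of 11 weeks. Each region, sex and treatment had 6 libraries, except male VTA vehicle with 5. Libraries of different regions came from the same animals, and the labels do not say which, so regions were not independent. The hour at which brains were collected, on which clock transcripts depend, is not given in the sources used here.

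The mammalian clock is a transcriptional feedback loop. The proteins of Arntl (also known as Bmal1) and Clock pair and activate genes through E-boxes, among them the Period genes, whose proteins repress the pair, and Nr1d1 and Nr1d2 (also known as Rev-erbα and Rev-erbβ), nuclear receptors that repress Arntl through ROR elements. Ciart encodes a further repressor of the pair. Dbp and Tef encode PAR-bZIP factors that pass the rhythm to other genes through D-boxes. Transcripts of Arntl and of the output genes peak at opposite times of day in most tissues. Outside the suprachiasmatic nucleus, brain regions carry local clocks, and Per1 and Per2 also respond within minutes to neuronal activity and to glucocorticoids.

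RefSeq promoters were matched for 9 of the 10 genes, with Per2 not among them. The 250 bases upstream of 1 start site are shown for 4 members because they hold, in capitals, letters that match the motifs searched. These motifs are the E-box CACGTG, the D-box TTANGTAA and, for the ROR element, the pattern TNGGTCA, where N is any base. With N free, TNGGTCA is a loose pattern, and a match is called a ROR element here by its letters only. Each was searched on both strands, so that a reverse match is printed as its complement. Whether the loop acts through the matches shown was not tested. All are 5′ to 3′ on the gene's strand in GRCm38.p6, and the last base printed is the base before the start. Ciart (chr3:95882229-95882478, minus strand) held 3 E-boxes, whose first bases lay at -116, -58 and -44 from the start. Per1 (chr11:69098699-69098948, plus strand) held 1 E-box at -166. Per3 (chr4:151044666-151044915, minus strand) held D-boxes at -205 and -158 and a match of the ROR pattern, printed as TGACCAA, at -118. Arntl (chr7:113207215-113207464, plus strand) held matches of the ROR pattern, TTGGTCA at -200 and TCGGTCA at -181. A further match of Arntl, TAGGTCA at 31 from another start site, lay outside the bases shown.
Ciart: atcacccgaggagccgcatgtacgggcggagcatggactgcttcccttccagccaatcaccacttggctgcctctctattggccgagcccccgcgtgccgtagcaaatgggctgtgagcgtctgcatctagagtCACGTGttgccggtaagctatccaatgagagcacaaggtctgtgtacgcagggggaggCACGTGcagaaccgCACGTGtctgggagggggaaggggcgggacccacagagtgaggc
Per1: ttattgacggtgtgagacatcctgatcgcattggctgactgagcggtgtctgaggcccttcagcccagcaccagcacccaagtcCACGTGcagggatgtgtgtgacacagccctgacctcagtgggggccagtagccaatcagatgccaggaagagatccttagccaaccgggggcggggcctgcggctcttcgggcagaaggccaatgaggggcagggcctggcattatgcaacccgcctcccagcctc
Per3: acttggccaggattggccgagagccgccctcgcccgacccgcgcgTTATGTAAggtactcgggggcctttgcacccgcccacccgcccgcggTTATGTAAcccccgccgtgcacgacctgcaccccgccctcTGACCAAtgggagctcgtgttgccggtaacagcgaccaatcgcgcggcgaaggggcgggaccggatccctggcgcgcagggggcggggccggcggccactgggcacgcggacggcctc
Arntl: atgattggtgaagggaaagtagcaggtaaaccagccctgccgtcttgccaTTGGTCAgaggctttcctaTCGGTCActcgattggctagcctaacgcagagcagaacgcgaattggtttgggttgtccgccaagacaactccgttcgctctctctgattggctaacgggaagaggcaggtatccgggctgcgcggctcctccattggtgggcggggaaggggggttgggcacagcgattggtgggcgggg
Among 32851 mouse promoters of 300 bases (250 before and 50 after a start), 7.15% held the E-box, 2.32% the D-box and 11.0% the ROR element. Of the 14 promoters of the 9 matched members, 4 held an E-box, 1 a D-box and 4 a ROR element. By gene, 3 of the 9 held an E-box (Ciart, Per1 and Tef), 1 a D-box and 3 a ROR element (Arntl, Per3 and Tef). The variant E-box CACGTT was found for Nr1d1 alone, against 4.68% of all promoters, and no member held the cyclic AMP response element TGACGTCA, against 1.79%. These are matches of letters in 1 short window and describe sequence only.

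Total expected counts ranged from 3090998 to 77042133 per library (median 22092612), with PFC and DMS between 17826631 and 25470245, and the lowest expected count of any member in any library was 32 (Ciart). Levels are given as CPM (counts scaled to a common library total) after trimmed-mean (TMM) scaling over all 119 libraries, and log2 fold changes as log2FC with their standard error (SE). A gene was called when the adjusted p of edgeR's quasi-likelihood test (Benjamini-Hochberg, over all genes tested) was under 0.05 and the log2FC was at least 0.4 in size. The sex genes of 2 Amy libraries went against their labels. Library FTL_344, labelled female THC, had Xist at 0.293 CPM and summed Y-linked genes at 139 CPM, whereas library FTL_356, labelled male THC, had 489 and 0.371 CPM. Both are THC libraries, so tests between regions, made on vehicle libraries, did not use them, and tests of THC and of sex in the Amy were run with and without them. The region labels were checked with marker genes. The 8 dopaminergic markers, for example, summed to 3420 CPM or more in female VTA vehicle libraries and to 1935 CPM or more in male ones, with group medians of 25.01 to 56.7 CPM in vehicle libraries elsewhere. In whole tissue, fewer cells of a type and less RNA per cell cannot be told apart.

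The level of the clock genes by region was read first in the vehicle libraries. Dbp was 2.91-fold higher in DMS than in PFC, and 8 of the 10 members were called lower in VTA than in NAc, including all 3 Period genes, Arntl and Tef. The counts of PFC and DMS were deposited in a different table from those of NAc, Amy and VTA. The sources used here do not say whether these regions were sequenced apart. Regions were therefore tested only within a table, on vehicle libraries. These p-values treat libraries of different regions as independent, although they came from the same mice. Per kilobase of exon, over all libraries, Tef had the highest level of the 10 in PFC (41.5 CPM per kb), NAc (56.9) and Amy (43.4), whereas Dbp led in DMS (78.6) and VTA (30.4). The lowest level per kilobase was that of Per3 in PFC (4.38 CPM per kb) and in DMS (4.77), and that of Arntl in the other regions.

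In the positive arm, Arntl (a bHLH-PAS activator) ranged in vehicle libraries from 33.2 to 41.5 CPM in PFC (median 36.8), 29.6 to 66.6 in DMS (39.3), 21.8 to 30.8 in NAc (26.0), 21.1 to 30.9 in Amy (23.6) and 13.2 to 20.9 in VTA (14.6). Every VTA vehicle library lay below every one of NAc and Amy, and the PFC range lay inside that of DMS. The log2FC was -0.80 for VTA against NAc (SE 0.0637, edgeR adjusted p = 3.68e-14) and -0.69 against Amy (SE 0.0636, adjusted p = 3.71e-12), whereas Amy and NAc did not pass the test (log2FC -0.12, adjusted p = 0.0980). Clock, the partner of Arntl, was lower in DMS (median 98.2 CPM) than in PFC (117 CPM) by -0.26 log2 (SE 0.0313, adjusted p = 1.98e-08), below the fold asked for a call. Every PFC library lay above every DMS library for Clock. Its medians in NAc, Amy and VTA were 92.4, 84.6 and 71.5 CPM, and neighbours among these 3 overlapped.

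Among the repressors, Per1 ranged from 80.1 to 112 CPM in NAc vehicle libraries (median 92.9), 46.2 to 75.4 in Amy (55.7) and 25.8 to 48.4 in VTA (35.6). The NAc libraries all lay above those of Amy and VTA, while Amy and VTA overlapped between 46.2 and 48.4 CPM. The log2FC of Per1 was -0.75 for Amy against NAc (SE 0.0840) and -1.41 for VTA against NAc (SE 0.0891), both called. Per2 had medians of 29.0 CPM in PFC, 29.5 in DMS, 35.7 in NAc, 29.0 in Amy and 17.3 in VTA. It was called lower in VTA than in NAc (log2FC -1.14, SE 0.0822) and than in Amy (-0.81, SE 0.0822), and not called between the other regions compared. Per3 was highest in NAc (median 61.8 CPM, 47.2 to 65.6), where it was called above Amy (Amy against NAc -0.44) and VTA (VTA against NAc -0.78). Ciart was the member with the fewest counts. Its medians ran from 7.73 CPM in VTA to 12.4 CPM in DMS, and VTA lay below NAc by -0.50 log2 (SE 0.0626), a call.

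The Rev-erb genes followed different orders. Nr1d1 had medians of 106 CPM in PFC, 97.7 in DMS, 76.9 in NAc, 70.5 in Amy and 52.1 in VTA, and was called lower in VTA than in NAc (log2FC -0.50, SE 0.0703). Nr1d2 was the only member whose log2FC in VTA against Amy was above 0 (0.18, SE 0.0402, adjusted p = 0.000126, below the fold asked for a call). Its medians were 98.7 CPM in Amy and 109 CPM in VTA, with ranges of 82.8 to 105 and 99.2 to 121 CPM that overlapped.

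Of the output genes, Dbp differed most between DMS and PFC. It ranged from 65.1 to 112 CPM in PFC vehicle libraries (median 82.5), 210 to 275.8 in DMS (230), 125 to 163 in NAc (152), 85.9 to 117 in Amy (102) and 79.8 to 111 in VTA (91.1). Every DMS library was above every PFC library and every NAc library above every Amy and VTA library, while Amy and VTA overlapped. DMS exceeded PFC by 1.54 log2 (SE 0.0622, adjusted p = 9.45e-18), VTA lay below NAc by -0.70 (SE 0.0537), and the difference between VTA and Amy was -0.13 (SE 0.0535). Tef had medians of 320.6, 473, 450, 340.8 and 205 CPM in PFC, DMS, NAc, Amy and VTA. It was called higher in DMS than in PFC (log2FC 0.56, SE 0.0336) and lower in VTA than in NAc (-1.10, SE 0.0414) and Amy (-0.74, SE 0.0411).

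Read against all genes, regions differ widely, so these counts are a description. DMS against PFC called 2 of the 10 members, both higher, and 49.4% of all genes tested (26.3% higher). Amy against NAc called 3 members, all lower, where 24.1% of genes were called and 11.0% lower. VTA against NAc called 8 members, all lower, where 52.1% were called and 24.3% lower, and VTA against Amy 4, all lower, where 43.4% were called and 21.1% lower.

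**Figure D1:**
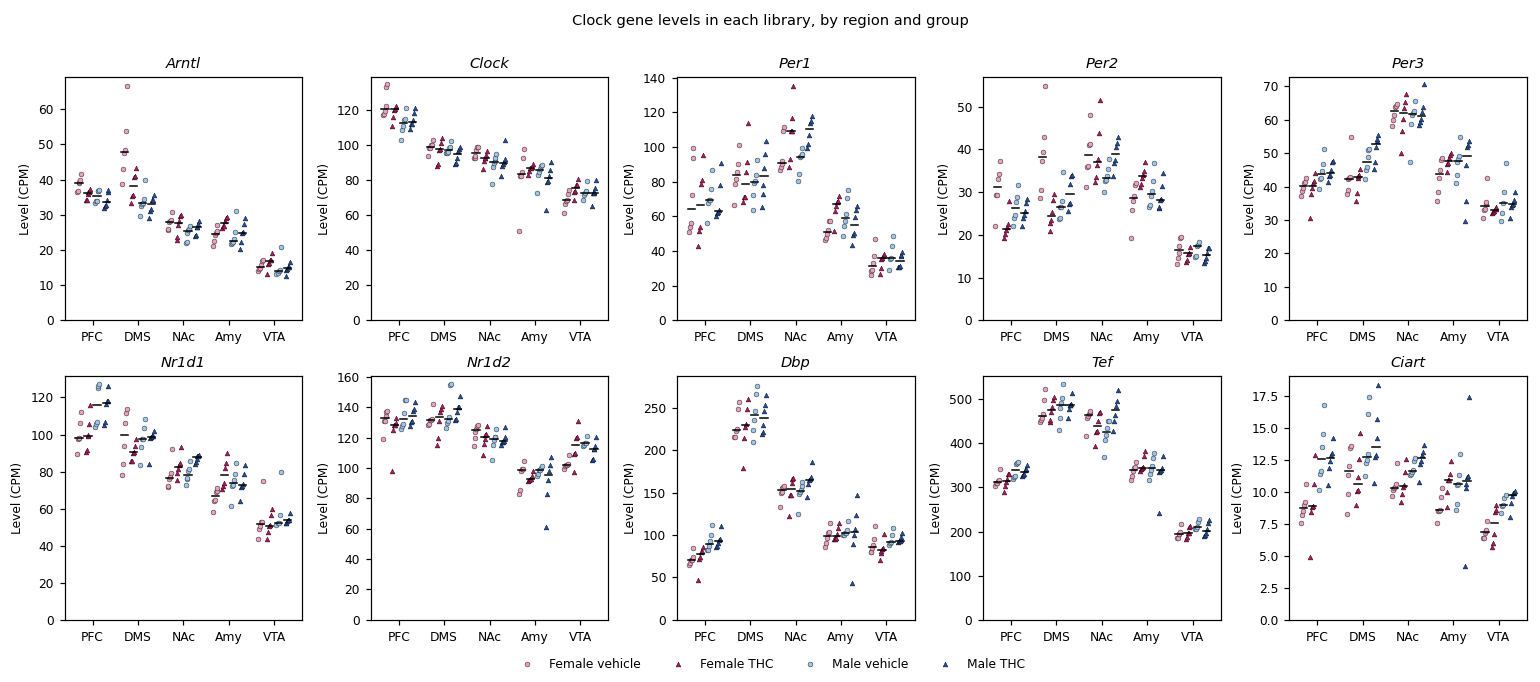
Level of each clock gene (CPM, axis from 0) in every library, by region. Colored points are libraries of each sex and treatment and black bars are group medians; Dbp in DMS vehicle libraries (210 to 275.8 CPM) stood above all PFC vehicle libraries (65.1 to 112 CPM).

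Exposure to THC was compared with vehicle in each sex and region, to ask whether transcripts measured weeks after the last injection differed. No member was called in any of the 10 comparisons. The largest differences were of Per2 in females, lower with THC in DMS (log2FC -0.63) and in PFC (-0.48), while Per1, Nr1d1 and other members were higher by 0.14 to 0.32 log2 in female Amy and male NAc, all below the threshold for a call. Over 100 tests of a member, edgeR gave 0 calls and 16 unadjusted p under 0.05. Of these 16, female Amy and male NAc gave 5 each, where 21.9% and 16.7% of all genes had such a p. Across the 10 comparisons that share ran from 1.84% (male Amy) to 21.9%, and the share of genes called from 0% to 1.57%. DESeq2 also gave 16 such p and made 1 call, of Per2 in female DMS. The other 84 edgeR tests had log2FC between -0.14 and 0.16, and the largest SE was 0.249.

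In female DMS, Per2 ranged from 28.6 to 55.0 CPM in vehicle libraries (median 38.4) and from 20.9 to 29.6 CPM in THC libraries (24.4). The groups overlapped, with 5 of 6 THC libraries below every vehicle library. The log2FC was -0.63 (SE 0.1504), with an edgeR adjusted p of 0.247, and -0.70 to -0.51 when any 1 library was left out. The call rested on the tool, since DESeq2 on the genes that pass the same low-count filter (run after the data were seen) gave the same log2FC with an adjusted p of 0.00301, the lowest over 17 other settings, of which 2, both with DESeq2, were under 0.05. In male DMS, Per2 ranged from 23.7 to 34.7 CPM with vehicle (median 26.6) and 25.6 to 34.1 CPM with THC (29.6). The difference between the sexes' THC effects on Per2 was 0.78 log2, male minus female (SE 0.190), and did not pass (adjusted p = 0.465). Arntl in female DMS ranged from 38.7 to 66.6 CPM with vehicle (48.0) and 33.4 to 43.2 CPM with THC (38.1), and 3 THC libraries lay below every vehicle library (log2FC -0.37, SE 0.113, adjusted p = 0.330). Of all genes tested, 0.0127% were called in female DMS and 8.90% had an unadjusted p under 0.05 (5.17% lower), against 2 of the 10 members, both lower. In male DMS 0% of genes were called and 1.93% had such a p, against none of the members, whose log2FC lay between -0.05 and 0.14. Among 11 immediate early genes, which neurons induce on firing, 6 were lower at unadjusted p under 0.05 in female DMS (summed 381 to 539 CPM with vehicle and 241 to 590 with THC) and 5 higher in male DMS. Their part in the result was not tested.

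In female PFC, Per2 ranged from 22.04 to 37.4 CPM with vehicle (median 31.2) and 19.3 to 28.0 CPM with THC (21.4). All 6 THC libraries lay below the vehicle median and 4 below every vehicle library. The log2FC was -0.48 (SE 0.122, edgeR adjusted p = 0.753), and over 17 other settings the adjusted p lay between 0.0653 and 0.990. Arntl in the same libraries was 36.6 to 41.5 CPM with vehicle (39.1) and 34.1 to 37.2 with THC (36.1), with 5 of 6 THC libraries below every vehicle library (log2FC -0.12, SE 0.0419, adjusted p = 0.786). These were the 2 members with an unadjusted p under 0.05, where 5.84% of all genes had one (3.13% lower) and 0% were called. Of the immediate early genes, 6 of 11 were lower at unadjusted p under 0.05 (summed 283.9 to 759 CPM with vehicle and 205 to 699 with THC), and their part was not tested. In male PFC no member had an unadjusted p under 0.05, where 4.07% of genes had one and 0% were called, and log2FC lay between -0.07 and 0.03. The male minus female THC effect on Per2 was 0.41 log2 (adjusted p = 0.834).

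In female Amy, 9 of 10 members had a log2FC above 0 (median 0.17, all genes -0.01), and 5 had an unadjusted p under 0.05, all higher with THC. Per1 ranged from 46.2 to 57.5 CPM with vehicle (median 50.9) and 51.2 to 71.4 CPM with THC (67.3). Of the THC libraries, 5 of 6 exceeded every vehicle library. The log2FC was 0.32 (SE 0.0807, edgeR adjusted p = 0.0499), under the adjusted threshold and below the fold asked for a call. Over 17 other settings its adjusted p lay between 0.00710 and 0.129 and was under 0.05 in 5 of them, of which 2 left out 1 library (FTL_338 or FTL_343). Without library FTL_344, whose sex genes went against the label, the log2FC was 0.33 and the adjusted p 0.0856. Nr1d1 ranged from 58.4 to 71.4 CPM with vehicle (66.8) and 70.6 to 90.0 CPM with THC (77.9), and 5 THC libraries exceeded every vehicle library (log2FC 0.24, SE 0.0714, adjusted p = 0.0853). Per2 (28.5 CPM with vehicle and 33.8 with THC at the median), Arntl (24.5 and 27.6) and Ciart (8.58 and 10.9) had log2FC of 0.28, 0.19 and 0.27, with adjusted p of 0.137, 0.101 and 0.127. Without FTL_344 the adjusted p was 0.160 for Nr1d1, 0.215 for Per2, 0.154 for Arntl and 0.214 for Ciart (log2FC 0.23, 0.28, 0.20 and 0.27). With DESeq2, Nr1d1 and Arntl also came under 0.05 (lowest adjusted p 0.0289 and 0.0369), each below the fold asked for a call. Dbp (99.2 and 98.7 CPM) and Nr1d2 (98.5 and 92.9 CPM) were lower at the median with THC. The groups overlapped for every member, where 4.15% of all genes had groups that did not.

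Female Amy was the comparison in which most genes differed, with 1.57% of all genes called and 21.9% at an unadjusted p under 0.05 (10.8% higher). By edgeR, genes at adjusted p under 0.05 and higher made up 1.88%, against 1 of the 10 members. DESeq2 gave 3 members such a p, all higher, but it also called more genes than edgeR in this comparison. Its share of all genes at that p is not given here, so the 3 members have no matching background. Of 8 markers of cortical and basolateral projection neurons, all 8 were higher with THC at unadjusted p under 0.05 and 4 were called (summed 676 to 973 CPM with vehicle and 1017 to 1380 with THC). Of 8 markers of striatal medium spiny neurons, 6 were higher and 1 lower (475 to 1039 and 792 to 1332 CPM). The 5 choroid plexus markers summed to 17.1 to 1150 CPM with vehicle (median 237) and 17.6 to 3563 with THC (22.5), and the 6 thalamic markers to 140 to 246 (182) and 121 to 162 CPM (145), with 0 of 3 and 1 of 6 tested markers at such a p. The part of these markers in the clock gene values was not tested. Without library FTL_344, 5 members again had an unadjusted p under 0.05, all higher, as had 7 of the 8 cortical and basolateral markers. In male Amy no member had an unadjusted p under 0.05 (log2FC -0.14 to 0.04), where 1.84% of genes had one and 0% were called, and none had without library FTL_356 (-0.10 to 0.22). The male minus female THC effect on Per1 was -0.46 log2 (adjusted p = 0.253) and, without libraries FTL_344 and FTL_356, -0.41. No member was called for this difference or with both sexes pooled, with these 2 libraries or without them.

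In male NAc, all 10 members had a log2FC above 0 (0.01 to 0.25, median 0.11), and 5 had an unadjusted p under 0.05, where 16.7% of all genes had one (8.10% higher) and 0% were called. Per1 ranged from 80.1 to 99.6 CPM with vehicle (94.5) and 99.1 to 118 CPM with THC (110). Of the THC libraries, 5 of 6 lay above every vehicle library. The log2FC was 0.25 (SE 0.0580), with adjusted p of 0.210 by edgeR and 0.0164 by DESeq2, at a fold too small for a call. These p were adjusted over unlike numbers of genes, 15932 by edgeR and 2765 by DESeq2 (3268 on the genes that pass the low-count filter). Nr1d1 (72.6 to 85.9 CPM with vehicle and 83.9 to 89.2 with THC), Per2 (30.1 to 37.9 and 33.8 to 43.0), Tef (368.98 to 450 and 429 to 520) and Dbp (125 to 163 and 145 to 186) had log2FC of 0.14, 0.20, 0.17 and 0.14, and adjusted p of 0.210 to 0.278. Again the groups overlapped for every member, where 0.860% of genes had groups that did not. Of the immediate early genes, 6 of 11 were higher at unadjusted p under 0.05 (summed 230 to 287.3 CPM with vehicle and 255 to 362.01 with THC), as were 7 of 8 medium spiny neuron markers (2531 to 3868 and 3453 to 5255 CPM). Their part was not tested. In female NAc no member had an unadjusted p under 0.05 (log2FC -0.07 to 0.16), where 4.61% of genes had one and 0% were called.

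In the VTA the differences were small. Nr1d2 in females ranged from 99.2 to 109 CPM with vehicle (102) and 97.3 to 131 CPM with THC (115), and 5 THC libraries lay above and 1 below every vehicle library (log2FC 0.16, SE 0.0612, adjusted p = 0.512). Clock in females was at 68.5 CPM with vehicle and 75.4 CPM with THC at the median (log2FC 0.13, SE 0.0548, adjusted p = 0.514). These 2 members had an unadjusted p under 0.05, both higher, where 9.02% of genes had one (4.64% higher) and 0% were called, and all 6 microglial markers were lower with THC at that p (summed 298.96 to 376.4 and 232 to 334.97 CPM), a change whose part was not tested. In male VTA no member had such a p (log2FC -0.12 to 0.06), where 5.92% of genes had one and 0% were called. With both sexes pooled, edgeR and DESeq2 called 0 members in every region, and edgeR called 0% of genes. An unadjusted p under 0.05 by edgeR was given to 2 members in PFC (4.81% of genes), 1 in DMS (4.88%), 2 in NAc (10.2%), 0 in Amy (7.05%) and 0 in VTA (9.99%). For the difference between the sexes' THC effects, both tools again called 0 members, and edgeR called 0.0059% of genes in Amy and 0% elsewhere. The members with an unadjusted p under 0.05 for that difference numbered 1 in PFC (5.87% of genes), 2 in DMS (5.90%), 1 in NAc (11.0%), 3 in Amy (15.8%) and 1 in VTA (6.16%).

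**Figure D2:**
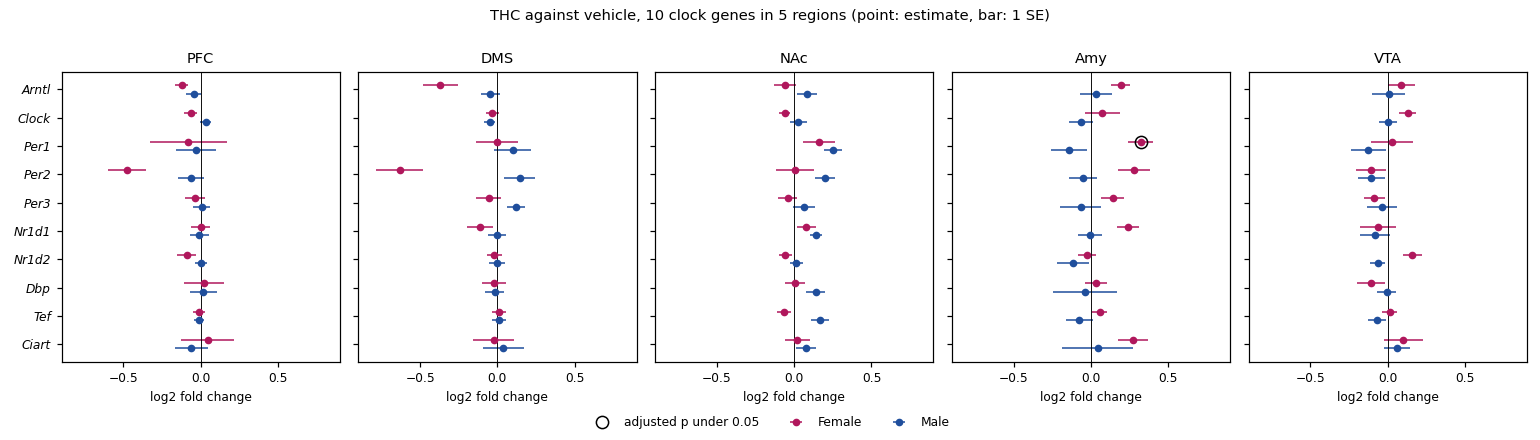
Log2 fold change of THC against vehicle for each clock gene in the 5 regions, females and males apart (points, with bars of 1 SE; rings mark an adjusted p under 0.05). Per2 in female DMS (-0.63) and female PFC (-0.48) lay farthest from 0, and the 1 ring is Per1 in female Amy (0.32).

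Females and males were compared within each region, with treatment as a covariate. The repressor Ciart was higher in males in PFC, DMS, NAc and VTA, by 0.21 to 0.51 log2 at an adjusted p under 0.05, and in PFC it was the 1 member called. In PFC the output genes Dbp and Tef, and Nr1d1 and Per3, also passed the adjusted threshold, all higher in males. In DMS Arntl was lower in males.

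In PFC, Ciart ranged from 4.94 to 12.9 CPM in 12 females (median 8.89) and 10.2 to 16.8 CPM in 12 males (12.6). All 12 males lay above the female median and 6 above every female. The log2FC was 0.51 (SE 0.105, edgeR adjusted p = 0.0149), or 1.42-fold. Dbp ranged from 46.9 to 86.3 CPM in females (72.4) and 82.4 to 112 CPM in males (92.1), with 10 males above every female (log2FC 0.36, SE 0.0779, adjusted p = 0.0201, 1.29-fold). Nr1d1 (medians 98.7 and 117 CPM, log2FC 0.20, adjusted p = 0.0241), Tef (312.58 and 335.15 CPM, 0.10, adjusted p = 0.0352) and Per3 (40.3 and 44.2 CPM, 0.17, adjusted p = 0.0411) were also higher in males, and with no low-count filter the adjusted p was 0.0512 for Nr1d1 and 0.0502 for Per3. Arntl and Clock, of the positive arm, were at -0.10 each and did not pass (adjusted p = 0.0889 and 0.0663, and for Clock 0.0406 by DESeq2). The 5 members at adjusted p under 0.05, all higher, and the 7 at an unadjusted p under 0.05, compare with 0.802% of all genes higher at the first threshold and 16.3% at the second, and the 1 call with 0.237% of genes called (0.164% higher). Female THC library FTL_272 was the lowest PFC library in 7 members. Without it the log2FC was 0.45 for Ciart and 0.32 for Dbp, and Ciart was still called (that comparison was added after the data were seen). Of 6 microglial markers, 4 were higher in males at unadjusted p under 0.05 (summed 253 to 290 CPM in female libraries and 282.4 to 306.9 CPM in male ones), and 4 of 11 immediate early genes were lower. Their part was not tested.

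In DMS, Arntl ranged from 33.4 to 66.6 CPM in females (median 42.1) and 29.2 to 39.9 CPM in males (33.2). All 12 males lay below the female median and 6 below every female. The log2FC was -0.38 (SE 0.0753, edgeR adjusted p = 0.00421), just below the fold asked for a call. Per3 (42.6 CPM in females and 49.9 CPM in males at the median, log2FC 0.24, SE 0.0554, adjusted p = 0.00961) and Ciart (11.2 and 12.9 CPM, 0.31, SE 0.0973, adjusted p = 0.0423, or 0.0918 with no low-count filter) were higher in males. No member was called, where 2.64% of genes were. At adjusted p under 0.05, 5.01% of genes were higher and 5.87% lower, against 2 and 1 of the 10 members. DESeq2 called none either and gave 3 members an adjusted p under 0.05, while 4 had an unadjusted p under 0.05 by either tool (27.8% of genes by edgeR). Of the medium spiny neuron markers, 5 of 8 were lower in males at unadjusted p under 0.05 (summed 6963 to 9485 CPM in female and 5639 to 8962 CPM in male vehicle libraries), a difference whose part was not tested.

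In NAc, Ciart was 9.24 to 12.6 CPM in females (10.4) and 10.8 to 13.6 CPM in males (12.3), with all 12 males above the female median (log2FC 0.21, SE 0.0508, adjusted p = 0.0306, or 0.0675 with no low-count filter). In VTA it was 5.70 to 8.96 CPM in females (6.90). The 5 male vehicle libraries had 8.37, 8.99, 9.55, 9.78 and 8.87 CPM, the 6 male THC libraries ranged from 8.07 to 10.1, and 8 of 11 males exceeded every female (log2FC 0.36, SE 0.0717, adjusted p = 0.0231, or 0.0580 without library FTL_372). In Amy no member had an unadjusted p under 0.05 (log2FC -0.07 to 0.13), where 6.06% of genes had one, with or without libraries FTL_344 and FTL_356 no member was called, and 0.0118% of genes were. The share of genes called was 0.250% in NAc and 0.113% in VTA, against none of the members. The 1 member at adjusted p under 0.05 and higher in each of them compares with 1.38% of genes in NAc and 0.0711% in VTA. DESeq2 called none in these 3 regions, and edgeR gave an unadjusted p under 0.05 to 2 members in NAc (16.4% of genes) and 3 in VTA (7.19%). All 6 microglial and 6 of 8 oligodendrocyte markers were higher in NAc males at unadjusted p under 0.05, and their part was not tested.

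**Figure D3:**
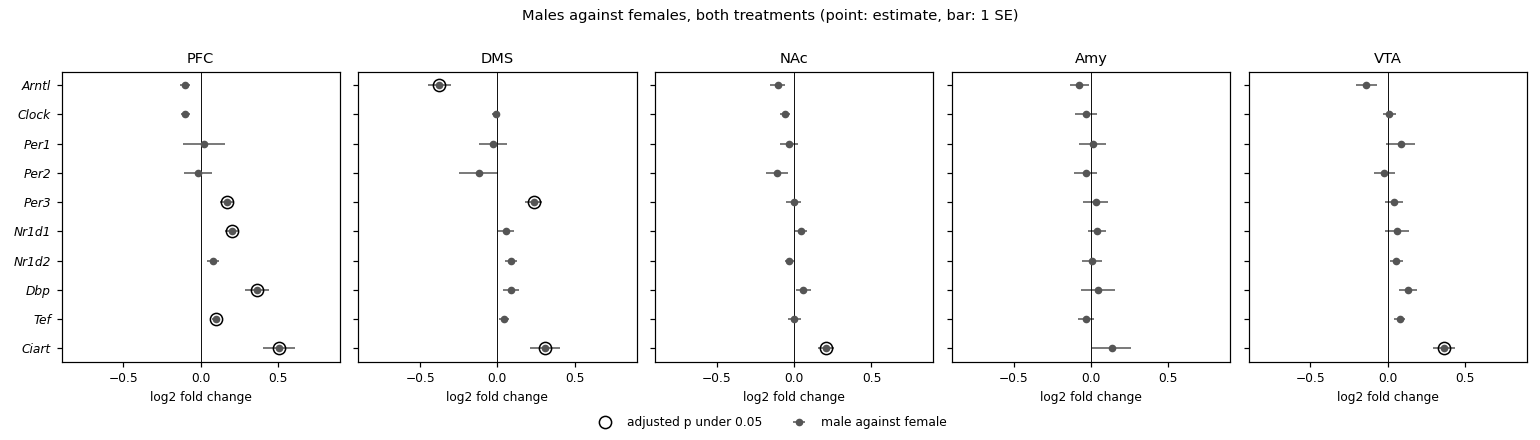
Log2 fold change of males against females for each clock gene in the 5 regions (points, with bars of 1 SE; rings mark an adjusted p under 0.05). Ciart lay to the right of 0 with a ring in PFC (0.51), DMS (0.31), NAc (0.21) and VTA (0.36), and Arntl to the left with a ring in DMS (-0.38).

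The arms of the clock were then set against each other across the libraries of a region, after group means (region, sex and treatment) were removed. The opposite timing given above is that of Arntl and the output genes, and none was given for Clock. Each gene's log2 level was divided by its SD, and the mean was taken over Arntl and Clock and over the other 8 members. The 2 means correlated at r = -0.05 in PFC, -0.32 in DMS, 0.13 in NAc, 0.11 in Amy and 0.26 in VTA. There were 24 libraries in each region and 23 in VTA. The values of r in Amy and VTA rested on single libraries. Without FTL_344 and FTL_356 r was 0.56 in Amy, where leaving out FTL_356 alone gave the same, and without FTL_371 it was -0.01 in VTA. Subsets of 11 or 12 libraries diverged, for example -0.61 in female and 0.06 in male DMS libraries, 0.66 in vehicle and -0.18 in THC libraries of NAc, and 0.79 in male and -0.22 in female VTA libraries. Libraries of a region came from 1 kind of dissection and differed in depth, and these values are a description. Arntl and Clock themselves correlated at 0.60 in VTA, 0.46 in DMS, 0.36 in Amy and 0.30 in NAc, and at -0.28 in PFC.

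Arntl was taken against each of the 8 other members in each region, 40 relations in all, each with a permutation test (100000 permutations of libraries within groups, two-sided). Of these, 23 had a negative r, with 7 of 8 in DMS, 6 in PFC, 5 in Amy, 3 in NAc and 2 in VTA. None had an adjusted p under 0.05. Adjusted p-values are over the 40 relations. The values ran from -0.50 (Per3 in DMS, permutation p = 0.0478, adjusted p = 0.580) to 0.50 (Nr1d1 in VTA). For Dbp, whose transcript peaks away from that of Arntl, r was -0.22 in PFC (rho -0.18, permutation p = 0.265, adjusted p = 0.589) and -0.33 in DMS (rho -0.35, permutation p = 0.115, adjusted p = 0.580). It was 0.03 in NAc (rho 0.02, permutation p = 0.903), -0.18 in Amy (rho 0.11, permutation p = 0.556) and 0.12 in VTA (rho -0.05, permutation p = 0.599), with adjusted p from 0.776 to 0.903. Without the 2 libraries farthest from the median of Arntl, r was -0.19 in PFC, -0.28 in DMS, 0.17 in NAc, -0.35 in Amy and -0.17 in VTA. The sign thus turned in VTA, where library FTL_371 (male vehicle, the shallowest of the series with 3090998 counts) had the highest Arntl. Male VTA vehicle libraries had Arntl at 13.5, 14.3, 20.9, 13.2 and 14.035 CPM and Dbp at 88.2, 91.5, 109, 91.1 and 100 CPM, with library FTL_371 the third of each. In Amy r was 0.31 without libraries FTL_344 and FTL_356.

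**Figure D4:**
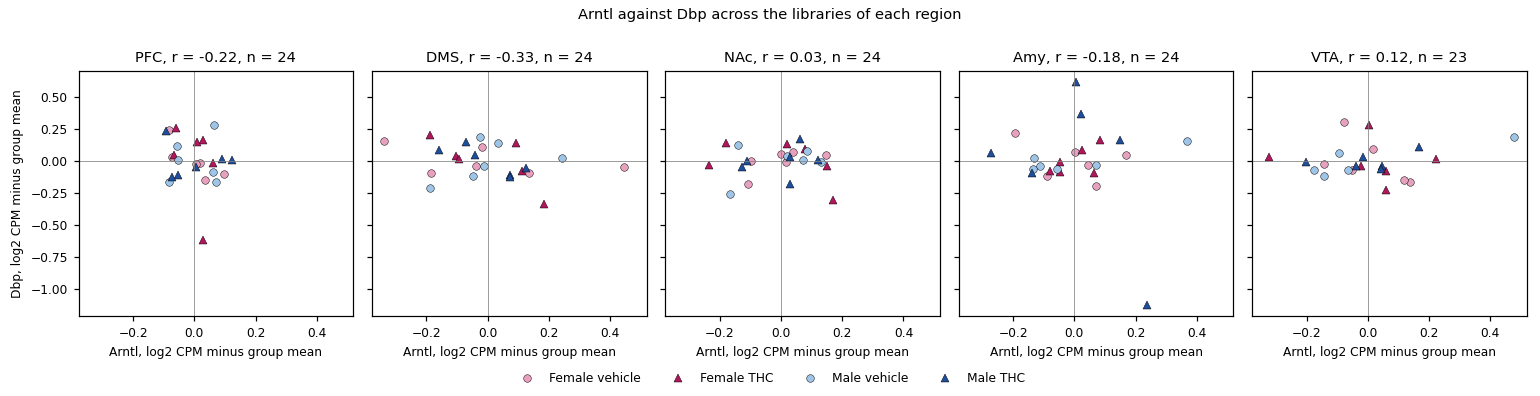
Dbp against Arntl in each library (log2 CPM minus the group mean on both axes), by region, with color and shape for sex and treatment. The points form no common slope: r was -0.33 in DMS, -0.22 in PFC and 0.12 in VTA, where 1 library with high Arntl lay apart.

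Several pairs of members varied together across libraries. Dbp and Tef had r of 0.81 in PFC, 0.79 in DMS, 0.83 in NAc and 0.85 in Amy, but 0.01 in VTA. Dbp and Ciart had 0.85 in PFC, 0.70 in DMS, 0.37 in NAc, 0.86 in Amy and 0.15 in VTA. Per1 and Per2 were positive in every region (0.42 to 0.80), as were Per3 and Nr1d2 (0.38 to 0.79). Several of the Amy values rested on library FTL_356. Without it and FTL_344, r in Amy was 0.47 for Dbp with Tef, 0.53 for Dbp with Ciart and 0.58 for Per3 with Nr1d2. Without FTL_272, the PFC values for these pairs were 0.81, 0.70 and 0.46. The Rev-erb genes gave no common sign, with r of 0.38 in PFC, 0.28 in DMS, -0.69 in NAc, -0.26 in Amy (0.00 without FTL_344 and FTL_356) and 0.41 in VTA. Arntl and Ciart had a negative r in all 5 regions (-0.40 to -0.04), but 0.06 in Amy without FTL_344 and FTL_356. In each r both genes were read from the same library, with its depth and dissection, so these r describe these libraries.

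**Figure D5:**
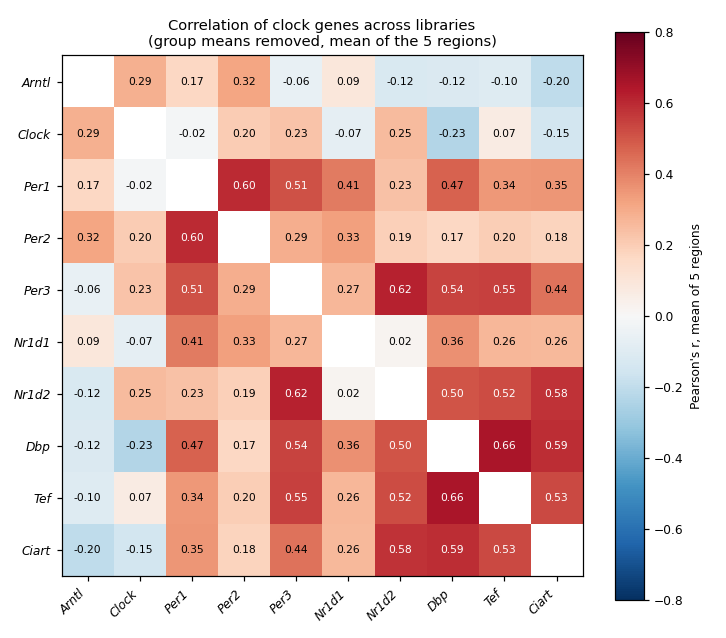
Pearson's r between each pair of clock genes across libraries with group means removed, averaged over the 5 regions (color scale from negative to positive). The highest means were those of Dbp with Tef (0.66), Per3 with Nr1d2 (0.62) and Per1 with Per2 (0.60), while Arntl with Ciart averaged -0.20.

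Within groups, Per1 in PFC had the widest spread of the members there (SD 0.35 log2, at the 85.3 percentile of genes in that region, where the median gene had 0.12). Ciart followed at 0.29 in PFC and had 0.37 in Amy, or 0.22 there without FTL_344 and FTL_356. Clock in DMS (0.07, at the 7.73 percentile) and Tef in VTA (0.09, at the 9.85 percentile) had a low spread. These percentiles are over genes of all levels. Clock had a mean of 96.6 CPM in DMS, where the median gene had 17.9. Tef had 203 CPM in VTA, where the median gene had 18.1. The part of level in these percentiles was not tested. The library with the lowest Dbp of its region was labelled THC in all 5 regions, female in PFC, DMS, NAc and VTA and male in Amy. In PFC and Amy it stood far below the next. In PFC, library FTL_272 (female) had Dbp at 46.9 CPM, with the next at 65.1, and Ciart at 4.94 CPM, with the next at 7.58. In Amy, library FTL_356, whose sex genes went against its male label, had Dbp at 43.9 CPM, with the next at 85.9, and Ciart at 4.23 CPM, with the next at 7.58. It was the lowest Amy library in 6 members, yet had Arntl at 29.0 and Nr1d1 at 83.4 CPM, in the upper part of the region's ranges. In DMS, NAc and VTA the lowest Dbp values (FTL_296, FTL_320 and FTL_364) were 179, 123 and 71.0 CPM, with the next at 210, 125 and 78.5. Whether these libraries share an animal is not given in the labels, so the 5 may not be independent.

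Genes whose levels followed Dbp most closely were ranked by r with Dbp, with group means removed, averaged over the 5 regions (15373 genes, 119 libraries). The 5 most alike outside the 10 were Sun2 (mean r 0.66), Hlf (0.65), a PAR-bZIP gene like Dbp and Tef, Gabrd (0.65), a GABA-A receptor subunit, Bhlhe41 (0.64), a clock repressor, and Mgll (0.60), which encodes monoacylglycerol lipase. Tef ranked 3, Ciart 10, Per3 17, Nr1d2 34, Per1 55, Nr1d1 246 and Per2 2535, while Arntl (11461) and Clock (13792) ranked in the lower part. Without FTL_344 and FTL_356, Gabrd (0.69), Sun2 (0.66), Hlf (0.64) and Mgll (0.63) ranked 2 to 5 and Bhlhe41 9, while Tef ranked 14, Ciart 35, Nr1d1 77, Per1 116 and Per3 148. Nr1d2 moved from a mean r of 0.50 to 0.36, and Arntl from -0.12 to -0.02. The most opposed genes were Epm2aip1 (-0.65), Ssr1 (-0.65), Gmps (-0.62), Gpd2 (-0.61) and Crim1 (-0.60). Over all genes the 5th, 50th and 95th percentiles of this mean r were -0.31, 0.00 and 0.28.

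The other 18 clock genes tested, among them cryptochromes and further output genes, were read beside the members. With THC, Usp2 (a clock-controlled deubiquitinase, log2FC 0.54, SE 0.0816, edgeR adjusted p = 0.00990) and Npas2 (a paralog of Clock, 0.72, SE 0.149, adjusted p = 0.0259) were called higher in female Amy, and Hlf was higher by 0.38 (adjusted p = 0.0363), below the fold asked for a call. Without FTL_344 Usp2 (0.52, adjusted p = 0.0218) and Npas2 (0.73, adjusted p = 0.0482) were still called, and Hlf had an adjusted p of 0.0679. No other comparison of THC with vehicle within a sex called any of them. Between the sexes, Bhlhe41 was higher in males in PFC (0.25, adjusted p = 0.00648) and DMS (0.18, adjusted p = 0.00794), as was Cry2, a repressor, in NAc (0.11, adjusted p = 0.0319). In DMS Cry1 (-0.19, adjusted p = 0.0157) was lower in males. Npas2 was lower in DMS males by a small margin (-0.10, adjusted p = 0.0389). By region, DMS against PFC called Fbxl21 (1.43), Cry1 (1.18), Bhlhe41 (0.98) and Npas2 (0.60) higher and Bhlhe40 (-1.77), Rorb (-1.65), Arntl2 (-1.26) and Csnk1e (-0.56) lower. Amy against NAc called 2 higher, Arntl2 (0.65) and Bhlhe40 (0.49), and 4 lower, Npas2 (-1.25), Hlf (-0.85), Usp2 (-0.62) and Cry1 (-0.57). In VTA, Rora was called higher than in NAc (0.89) and than in Amy (0.85). Npas2 was called lower in VTA than in NAc (-3.91) and Amy (-2.66), as was Usp2 (-1.29 and -0.67), while Hlf (-1.05), Cry1 (-0.85) and Cry2 (-0.53) were called lower than in NAc, and Arntl2 (-0.71) and Bhlhe40 (-0.46) than in Amy.

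Some members lie over a neighbouring gene, and the strand setting of the counting is not given in the sources used here, so reads of such pairs could be shared. Nr1d1 overlaps Thra on the opposite strand, at a mean of 703 CPM over these libraries, Per3 overlaps Camta1 on the same strand (307.89 CPM), and Dbp overlaps Sphk2 on the opposite strand (25.5 CPM). The expected counts of Ciart were not whole in 5.04% of the libraries and those of Nr1d2 in 0.840%, which is where the estimate split reads, and the counts of the other members were whole in every library.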

How the data were processed

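RNA-seq libraries (polyadenylated RNA, NEBNext Ultra II directional kit, paired-end) were trimmed with cutadapt 2.9, aligned to mm10 with STAR 2.7.3a and quantified with RSEM 1.3.1, per the labels. The values the authors deposited are expected counts per gene symbol, not normalized, in 2 tables of 55291 symbols, and 1 male VTA vehicle sample was left out by the study for low RNA quality. The methods also name a male VTA sample removed as an outlier, without saying which or whether it is the same one, and all 11 male VTA libraries were used here. Every column of per-sample values was mapped to a label. Expected counts were rounded and tested with edgeR 4.0.16 in R 4.3.3 (filterByExpr, TMM, robust quasi-likelihood F test) over all genes, per sex and region for THC, with treatment as a covariate for sex, with sex as a covariate for regions, and with an interaction term. DESeq2 1.42.0, other scaling, no low-count filter, fits over all 4 groups of a region and, in some comparisons, leaving out single libraries were alternatives. Levels are TMM CPM, and log2 CPM had a prior count of 2. Correlations used group-centred values, scipy 1.17.1 and numpy 2.4.6. Per the labels each library of a group is a separate sample, and p-values measure the spread between these samples. The genes named beyond the 10 members were the 5 highest and 5 lowest in likeness to Dbp and the other clock genes that passed a test, of which some results are not reported here. Members and lists were chosen with earlier results of these data known. Counts were also simulated with a log2 change of 1. Every gene was given the same dispersion (spread between libraries), and only genes above a floor of mean counts were changed. The runs therefore do not stand for genes of wider spread or fewer counts. For THC against vehicle in female PFC, edgeR recovered 200 of 200 changed genes, with 10 other calls among 15932 genes. For the interaction in PFC it recovered 195, with 13 other calls among 16381 genes. Changes smaller than 1 log2, such as those of the members with THC, were not simulated, so these runs do not show how often such changes are found.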

Additional observations from a re-analysis of the deposited data

Results flagged for a closer look

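In each group of 5 or 6 libraries, the highest and lowest level of each member was tested with Dixon's ratio. Chance marks about 1 in 20 groups, and 24 values stood apart among 200 groups. Their levels are given in CPM with the library in brackets. Of the repressors, Per2 was high in female PFC THC at 28.0 (FTL_267), Per3 was high in female DMS vehicle at 54.8 (FTL_286) and low in male NAc vehicle at 47.2 (FTL_323), and Ciart was high in female NAc vehicle at 12.2 (FTL_313). Dbp was high in male PFC THC at 111 (FTL_284) and male Amy vehicle at 117 (FTL_346), and low in female NAc vehicle at 133 (FTL_313) and male NAc vehicle at 125 (FTL_325). Nr1d1 was low in male DMS THC at 83.9 (FTL_303) and high in female NAc vehicle at 92.2 (FTL_309), female VTA vehicle at 75.0 (FTL_358), male VTA vehicle at 80.0 (FTL_371) and male VTA THC at 57.4 (FTL_376). Nr1d2 was low in female PFC vehicle at 119 (FTL_266) and female PFC THC at 97.8 (FTL_272), and high in female DMS vehicle at 143 (FTL_286) and female VTA vehicle at 109 (FTL_358). Arntl was high in male Amy vehicle at 30.9 (FTL_346) and male VTA vehicle at 20.9 (FTL_371), the latter also the shallowest library. Clock was low in female Amy vehicle at 50.8 (FTL_338) and male Amy vehicle at 72.2 (FTL_348). Tef was high in female PFC vehicle at 341.9965 (FTL_262) and low in female NAc vehicle at 417 (FTL_313) and in male Amy THC at 241 (FTL_356), the library whose sex genes went against its label. Libraries FTL_286, FTL_313, FTL_346, FTL_358 and FTL_371 each stood apart in more than 1 member.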

How the results depend on the processing

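No paired analysis was possible because the library numbers are unique to each sample and the labels do not tie libraries to mice. Counts of members called were within 1.5 times the reported count under 243 alternatives and moved further under 10. The reported count was 0 in every comparison of THC with vehicle, so agreement of 0 with 0 makes up part of the 243. With no minimum fold change the counts became 9 for Amy against NAc, 5 for DMS against PFC and 10 for VTA against Amy. They became 1 for THC in female Amy and, for males against females, 5 in PFC, 3 in DMS, 1 in NAc and 1 in VTA. DESeq2 called 1 member in female DMS, on all genes and on those that pass the low-count filter (chosen after seeing the data). Leaving out each library gave 0 members called for THC in female PFC, DMS, Amy and VTA and in male NAc, Amy and VTA. It was not run for THC in the other groups of 6. For VTA against NAc and Amy, only the 5 male VTA vehicle libraries were left out, 1 at a time. That gave 8 to 9 members called for VTA against NAc and 4 for VTA against Amy. Of single log2FC, 595 kept their side of the threshold, 13 gained it, 24 lost it and none reversed. The r of Arntl with Dbp depended on the setting. With group means kept it was -0.498 in PFC and -0.0944 in VTA. On CPM without TMM it was -0.582 in DMS and -0.0102 in NAc. In THC libraries alone it was -0.742 in DMS, -0.258 in NAc and -0.0209 in VTA, and in vehicle libraries alone 0.160 in Amy. Spearman's rho was 0.110 in Amy and -0.0464 in VTA. Without FTL_344 and FTL_356 it was 0.3065 in Amy, without FTL_356 alone 0.306, without FTL_371 -0.169 in VTA and without the 2 libraries farthest in Arntl -0.169 there (leaving out FTL_356 or FTL_371 alone was chosen after seeing the data). Correlations and other clock genes without single libraries, given with the results, were also chosen after seeing the data. The cause was not tested. Another scaling shifted the log2FC of any member by at most 0.03. The shallowest library held 32 counts of Ciart, so single-library values of that gene are the least precise.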
